A study of Homo sapiens with 39 samples.

Results

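The response of Kasumi-1 cells to tamibarotene was measured on 5 arrays, which are the 3 tamibarotene arrays (replicates 1, 2 and 3) and the 2 vehicle arrays (replicates 2 and 3) that the sample titles give for this line. They were taken from a series of 39 Affymetrix PrimeView arrays on 7 acute myeloid leukemia lines. Kasumi-1 is an established human line from a leukemia with the t(8;21) translocation, which fuses RUNX1 to RUNX1T1. Tamibarotene, also named SY-1425, is a synthetic retinoid that activates the retinoic acid receptor alpha (RARA). Per the labels it was added at 100 nM for a final 50 nM, the other arm received the solvent DMSO, and both arms were collected at 24 h. The labels do not tell whether replicates came from separate cultures. The p-values therefore measure the spread between replicate arrays, pooled over all 39, which may be technical. The other 6 lines (OCI-AML3, OCI-M1, MV-4-11, Sig-M5, NOMO-1 and KG-1a) had the same 2 arms on 34 arrays. A value is a normalized probe set intensity on the log2 scale, so a difference of 1 is a doubling, and values are compared between arrays for the same gene, not between genes. Expression was tested for 18132 genes with a single gene symbol.

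Retinoic acid receptors sit on DNA as dimers with RXR proteins. Without ligand they hold corepressors, and an agonist exchanges these for coactivators. Genes switched on in this way include those of enzymes that clear retinoids, such as CYP26A1 and DHRS3. In myeloid leukemia cells they also include surface proteins of maturation such as CD38 and CD11b (ITGAM). The RUNX1::RUNX1T1 fusion protein is itself a corepressor-binding transcription factor.

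Markers of the line were read first. RUNX1T1, the fusion partner, was measured at 5.76 to 6.51 on the 5 Kasumi-1 arrays and at 2.82 to 3.72 on the 34 arrays of the other lines. The stem cell factor receptor KIT was at 10.28 to 10.87, above the 2.42 to 9.85 of the other lines. Myeloperoxidase (MPO) was at 13.64 to 13.91, within the 3.75 to 13.94 of the other lines. The further markers CD34, BAALC, ANPEP and SPI1 also lay within the ranges of the other lines. POU4F1, a transcription factor high in many t(8;21) leukemias, was at 4.86 to 5.24, within the 3.93 to 7.56 of the other lines. Among markers of other cells the B cell marker MS4A1 was at 3.27 to 3.70 and the fibroblast markers DCN at 3.24 to 3.68 and LUM at 2.13 to 2.50. The platelet marker GP9 was at 6.23 to 6.58 and the red cell enzyme ALAS2 at 5.49 to 5.79, both within the range of the other lines (5.96 to 6.86 and 4.90 to 9.10). EPCAM, an epithelial adhesion protein, was at 8.54 to 9.28 in Kasumi-1 against 2.45 to 3.63 in the other lines, while the epithelial keratin KRT19 was at 3.83 to 4.51. RUNX1 was not among the genes tested by symbol, because its 8 probe sets carry a second symbol, and these were tested among all probe sets. In that test 2 were called lower (-0.53, adjusted p = 0.0323, and -0.55, adjusted p = 0.0491), and both missed the threshold without vehicle 2 (adjusted p = 0.472 and 0.468). The other RUNX1 probe sets gave -0.45 to 0.10.

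A pair of the 5 arrays stood apart from the rest. On vehicle 2 the beta-actin 3' minus 5' control difference, which rises when RNA is degraded or incompletely copied, was 1.18, against 0.30 on vehicle 3 and 0.20 to 0.22 on the tamibarotene arrays. Tamibarotene 1 lay away from its own group: over all genes it correlated at 0.9924 with vehicle 3 but at 0.983 and 0.9828 with tamibarotene 2 and 3, which correlated at 0.9953 with each other. 788 genes (4.35%) differed by more than 1 between tamibarotene 1 and the mean of the other two, against 16 genes (0.0882%) between tamibarotene 2 and 3. The main pattern of replicate differences in the other 6 lines, which held 38.9% of their within-group variance, was read from the mean of its 50 leading genes. That mean was 5.10 on tamibarotene 1, 7.38 and 7.44 on tamibarotene 2 and 3, 6.28 on vehicle 2 and 5.79 on vehicle 3. The range of 2.34 among the tamibarotene arrays exceeded the widest range within any group of the other lines, which was 1.90.

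**Figure D1:**
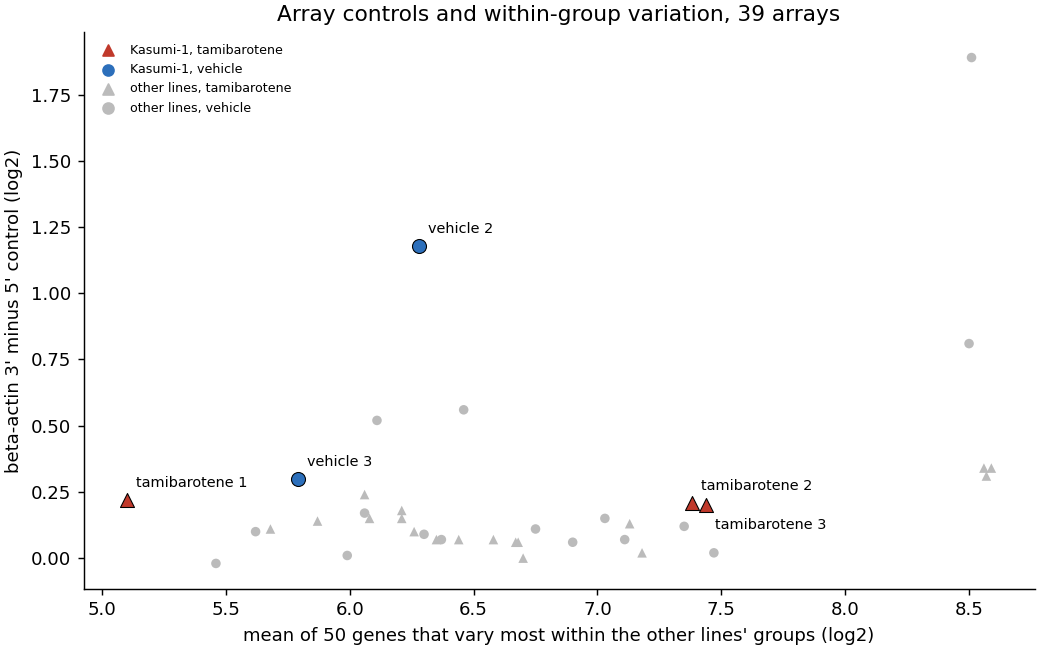
Each point is 1 of the 39 arrays, with the mean of 50 genes that vary most within groups of the other lines on the x axis and the beta-actin 3' minus 5' control difference on the y axis, both on the log2 scale. Vehicle 2 of Kasumi-1 lies at 1.18 on the y axis and tamibarotene 1 at 5.10 on the x axis, the lowest of all arrays.

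Genes were called at an adjusted p under 0.05 in limma, with the spread pooled over all 39 arrays. With all 5 Kasumi-1 arrays, 87 genes (0.48% of those tested) were higher and 428 (2.36%) were lower with tamibarotene. Of these, 3 rose and 21 fell by at least 2-fold. Most calls were lost without vehicle 2. In that fit 6 genes were higher (0.0331%) and 9 lower (0.0496%), and 12 of the 515 genes called with all arrays were still called. Leaving out vehicle 3 instead, which also leaves a single vehicle array, gave 404 higher (2.23%) and 1430 lower (7.89%). Among the 515 calls vehicle 2 lay farther from the tamibarotene mean than vehicle 3 did in 430 (83.5%), and 370 of the 428 falls had a higher value on vehicle 2 than on vehicle 3. Leaving out tamibarotene 1 gave 366 higher (2.02%) and 749 lower (4.13%). Leaving out tamibarotene 2 gave 12 (0.0662%) and 24 (0.132%), and tamibarotene 3 gave 86 (0.474%) and 282 (1.56%). With both tamibarotene 1 and vehicle 2 left out, 111 genes were higher (0.612%) and 73 lower (0.403%), 63 of them among the 515. The beta-actin difference moved with the arms through vehicle 2, and its part in these calls was not tested beyond these values and a fit with it as a covariate (8 higher, 0.0441%, and 20 lower, 0.11%). In 509 of the 515 calls the arms did not overlap, but that was true of 2090 genes above (11.5%) and 2819 below (15.5%) whatever their test. A limma fit to the 5 Kasumi-1 arrays alone, without the pooled spread, called 0 genes higher and 0 lower (smallest adjusted p = 0.204).

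**Figure D2:**
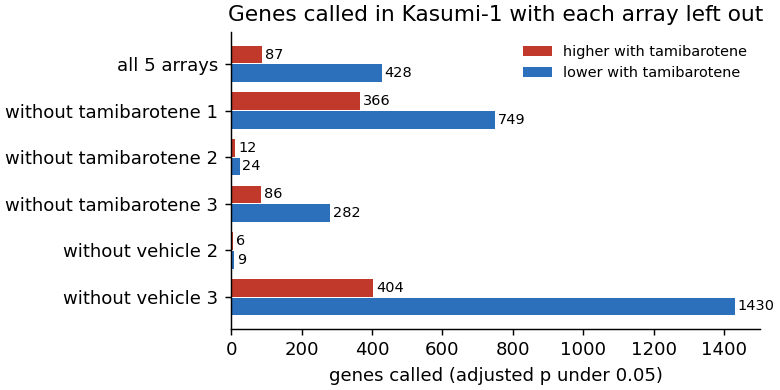
Bars give the number of genes called at an adjusted p under 0.05 in Kasumi-1, higher (red) and lower (blue) with tamibarotene, with all 5 arrays and with each array left out in turn. The counts run from 6 and 9 without vehicle 2 to 404 and 1430 without vehicle 3.

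The 12 genes called both with all arrays and without vehicle 2 comprise 4 rises and 8 falls. Of these, 8 were called whichever single array was left out: CD38, FAM117A and IRF1, which rose, and TENT5C, IL6R, GPRASP1, SEL1L3 and LRRC17, which fell. SIPA1, TBC1D9, SULT1C2 and HAS2 were lost without 1 or more other arrays. The rises are described first, with the promoters of CD38 and IRF1.

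CD38, a surface enzyme that consumes NAD and a textbook target of the receptor, had the largest rise. It was 7.23, 6.91 and 7.06 on tamibarotene 1, 2 and 3 and 5.20 and 5.33 on vehicle 2 and 3. All tamibarotene arrays were well above both vehicle arrays, with tamibarotene 1 the highest and vehicle 2 the lowest of the 5. The difference was 1.80 ± 0.14 (SE; 3.49-fold, adjusted p = 1.72e-09), and it was 1.74 without vehicle 2 and 1.72 without tamibarotene 1. A single probe set measured it.

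FAM117A was 9.80, 9.79 and 9.75 with tamibarotene and 9.03 and 8.73 with vehicle. The tamibarotene values lay close together and above both vehicle values, a difference of 0.90 ± 0.12 (adjusted p = 0.000206, and 0.00061 without vehicle 2). Its other probe set gave 0.79, also called. IRF1, the transcription factor that switches on MHC class I and other interferon response genes, was 9.0, 8.94 and 9.09 with tamibarotene and 8.60 and 8.41 with vehicle. The rise of 0.51 ± 0.10 was small but was called in every leave-one-out fit (adjusted p = 0.00678, and 0.0392 without vehicle 2), and 3 of its 4 probe sets were called. SIPA1, a GTPase-activating protein for RAP, was 8.54, 8.65 and 8.48 against 8.21 and 7.33. Its vehicle arrays lay farther apart than its tamibarotene arrays, and the difference of 0.79 ± 0.16 (adjusted p = 0.0105) was 1.22 without vehicle 2 and 0.35 without vehicle 3 (adjusted p = 0.191).

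The promoters of CD38 and IRF1, together with that of the receptor gene RARB, are shown because they allow the letters of retinoid receptor sites to be looked for where expression was measured. The sequences are the 250 bases before each gene's start, from RefSeq in build GRCh38.p14, 5′ to 3′ on the gene's strand. Capitals mark either both hexamers of a direct repeat (each AGGTCA or AGTTCA or GGGTCA or GGTTCA, spaced by 1, 2 or 5 bases, either strand) or the TTC and GAA of TTCNNNGAA, the letters of STAT sites.
CD38 (chr4:15778078-15778327, + strand): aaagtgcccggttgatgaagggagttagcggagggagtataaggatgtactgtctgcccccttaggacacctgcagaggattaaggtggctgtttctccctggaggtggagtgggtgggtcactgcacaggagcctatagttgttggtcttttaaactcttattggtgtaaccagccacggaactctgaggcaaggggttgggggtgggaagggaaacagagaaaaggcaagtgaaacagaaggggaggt
IRF1 (chr5:132490774-132491023, - strand): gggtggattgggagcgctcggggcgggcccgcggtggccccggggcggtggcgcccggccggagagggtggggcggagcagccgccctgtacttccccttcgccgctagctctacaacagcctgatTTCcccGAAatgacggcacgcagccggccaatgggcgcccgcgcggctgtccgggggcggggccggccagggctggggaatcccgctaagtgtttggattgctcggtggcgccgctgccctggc
RARB (chr3:25428013-25428262, + strand): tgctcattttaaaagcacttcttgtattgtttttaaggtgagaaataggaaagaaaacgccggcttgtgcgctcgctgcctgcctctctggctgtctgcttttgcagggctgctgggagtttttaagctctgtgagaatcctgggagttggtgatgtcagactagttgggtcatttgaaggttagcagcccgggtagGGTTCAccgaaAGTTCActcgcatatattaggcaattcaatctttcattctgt

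Windows of 300 bases, from 250 before to 50 after the start, were found for 29 of the 37 genes searched. A direct repeat was present in 1 of them, RARB, at 53 to 37 bases before the start with a spacing of 5, and in 91 of all 35116 windows (0.259%). RARB, a retinoic acid receptor that is inducible by retinoids in many other cells, was 4.74, 4.80 and 4.69 with tamibarotene and 4.90 and 4.80 with vehicle, with a difference of -0.10 (adjusted p = 0.733). TTCNNNGAA was found in 3 of the 29 windows and in 7.66% of all windows. It lay at 124 to 116 bases before the start of IRF1, at 242 to 234 before that of CEBPE, which was not called, and at 51 to 43 before that of RARB, overlapping the repeat. No match was found for CD38, FAM117A, DHRS3 or CYP26A1, which says only that these letters are absent from those windows.

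**Figure D3:**
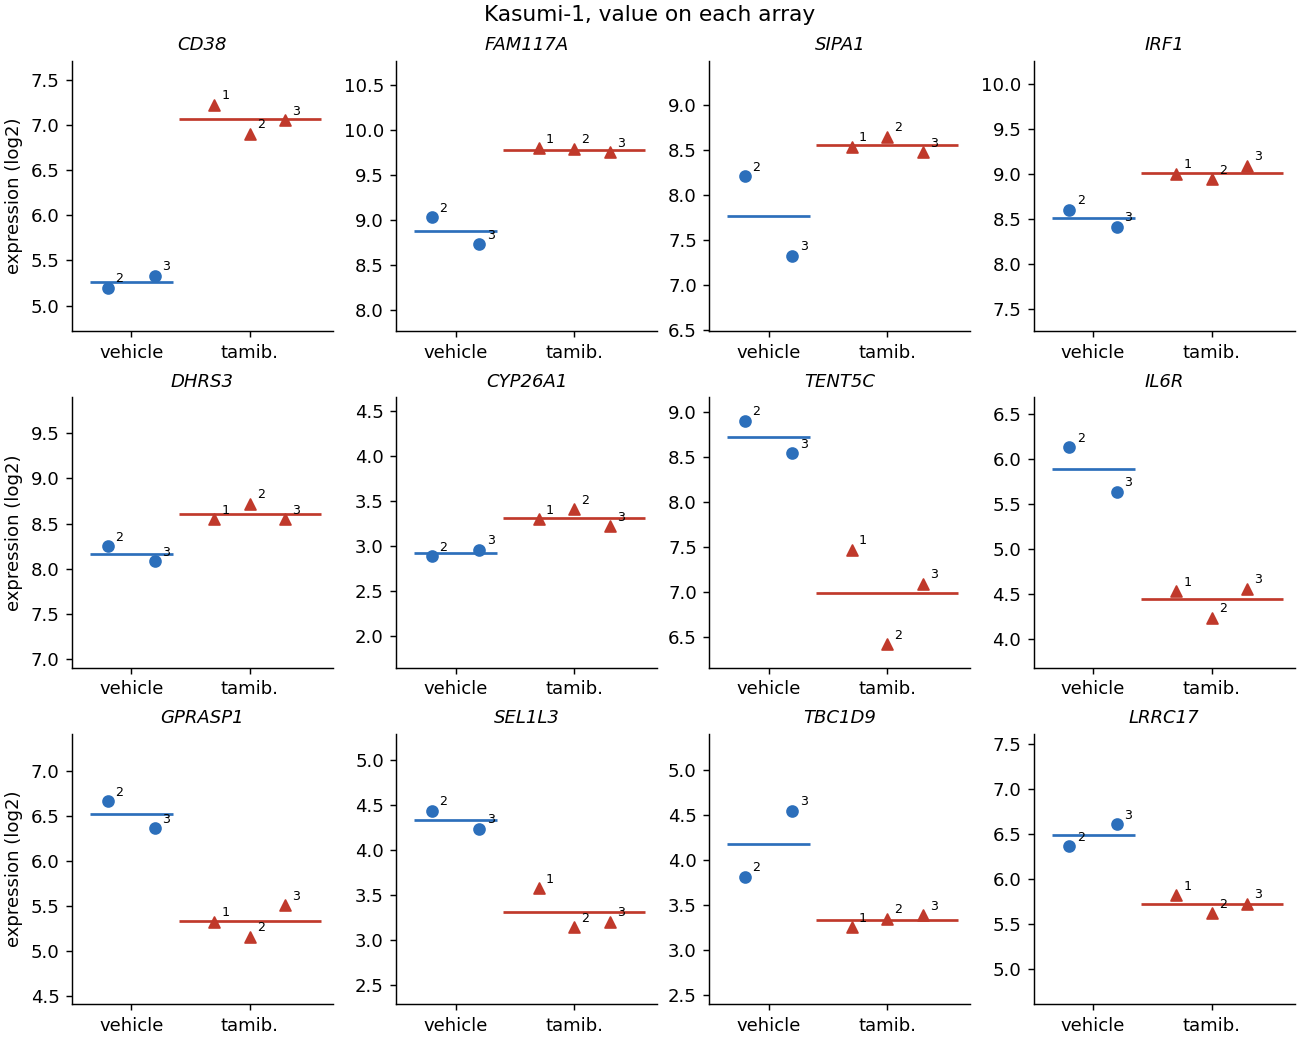
Each panel shows the log2 expression of 1 gene on the 2 vehicle arrays (blue circles) and 3 tamibarotene arrays (red triangles) of Kasumi-1, numbered by replicate, with lines at the means and a y axis spanning 3 log2 units. CD38 shows the widest gap between arms, DHRS3 and CYP26A1 narrow ones, and TENT5C, IL6R, GPRASP1 and SEL1L3 lie lower with tamibarotene.

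The falls included TENT5C, a poly(A) polymerase that stabilises messenger RNAs. It was 7.47, 6.42 and 7.09 with tamibarotene and 8.90 and 8.54 with vehicle, so the arms did not overlap although the tamibarotene arrays spread over about 1 unit. The difference was -1.72 ± 0.24 (adjusted p = 0.000238, and 0.0338 without vehicle 2), and 2 of its 3 probe sets were called. IL6R, the interleukin-6 receptor, was 4.53, 4.24 and 4.56 against 6.13 and 5.64. It fell by 1.45 ± 0.14 (adjusted p = 4.24e-07, and 0.000506 without vehicle 2), but this was 1 of 4 probe sets, and the others gave -0.66, -0.02 and 0.02. GPRASP1, which sorts G protein-coupled receptors to lysosomes, was 5.33, 5.16 and 5.51 against 6.67 and 6.37. The difference was -1.19 ± 0.12 (adjusted p = 9.03e-07), and its second, dimmer probe set gave -0.10. SEL1L3 was 3.57, 3.14 and 3.20 against 4.43 and 4.23, a difference of -1.02 ± 0.14 (adjusted p = 0.000238) near the low end of the scale, where the other probe sets gave -0.64 and -0.07. LRRC17, a secreted leucine-rich repeat protein, was 5.82, 5.62 and 5.73 against 6.37 and 6.61, with a difference of -0.77 ± 0.12 (adjusted p = 0.000661). The remaining falls were of TBC1D9 (-0.85), the sulfotransferase SULT1C2 (-0.64) and the hyaluronan synthase HAS2 (-0.57), all measured at low values. Without vehicle 3, TBC1D9 gave -0.48 (adjusted p = 0.202) and HAS2 -0.33 (adjusted p = 0.223).

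Several genes with large differences were not called once vehicle 2 was left out. CD34, the progenitor surface protein, was 6.73, 6.56 and 6.40 with tamibarotene, 8.43 on vehicle 2 and 6.98 on vehicle 3. Vehicle 2 was the highest of the 5 arrays, and the difference of -1.14 (adjusted p = 0.00423) was -0.41 without it (adjusted p = 0.346). In the same way MYO18B went from -1.20 to -0.48, the adrenergic receptor gene ADRA2A from -1.23 to -0.73, and AP2B1, a clathrin adaptor subunit, from -1.15 to -0.72. For UTS2, the urotensin-2 precursor, the vehicle arrays were at 6.12 and 6.03 and the difference stayed at -1.11, but the adjusted p was 0.21. LOC105372733 likewise kept a difference of -1.05 (adjusted p = 0.164). Among the rises, the succinate receptor SUCNR1 was 4.86 on tamibarotene 1 and 6.26 and 6.03 on the other two, against 4.10 and 4.60, a difference of 1.37 that was 1.12 without vehicle 2 (adjusted p = 0.331). TRH, the precursor of thyrotropin-releasing hormone, went from 0.91 to 0.49, and its other probe set, which was brighter in Kasumi-1, gave -0.09 (adjusted p = 0.875). The differences of ANKRD12 (1.38), DENND6B (0.96) and AOPEP (0.77) were about as large without vehicle 2 but were not called there. A lost call need not mean a smaller difference, since the adjustment depends on the p-values of all genes in a fit. The reason for each lost call was not tested. For AOPEP the standard error was 0.17 both without vehicle 2 and without vehicle 3, and its difference without vehicle 3 was 0.80.

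Of 26 genes that retinoic acid is reported to induce, 24 were measured, and 3 of them rose while none fell, beside the 0.48% and 2.36% of all genes. The list was drawn up with earlier results of these data known, so its count is a description. Its median difference was 0.08 against -0.01 over all genes, and 0.27 against 0.02 without vehicle 2. Besides CD38 these were PLAAT4, a phospholipid-metabolising enzyme also named RARRES3, and ITGAM, the integrin CD11b. PLAAT4 was 5.71, 5.22 and 5.18 against 4.44 and 4.70, with a difference of 0.80 ± 0.16 (adjusted p = 0.00678, and 0.264 without vehicle 2). ITGAM was 3.21, 3.90 and 3.92 against 2.94 and 2.89. Tamibarotene 1 lay nearer to the vehicle arrays, the difference was 0.77 ± 0.20 (adjusted p = 0.0309, and 0.289 without vehicle 2), and its other probe sets gave 0.13 and 0.24. All of these values were low.

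The retinoid-clearing enzymes did not pass the test. DHRS3, which reduces retinaldehyde to retinol, was 8.55, 8.72 and 8.55 with tamibarotene and 8.25 and 8.08 with vehicle. The arms did not overlap, but the difference of 0.44 ± 0.19 had an adjusted p of 0.199, and none of its 3 probe sets was called (0.44 to 0.64). CYP26A1, which oxidises retinoic acid, was 3.30, 3.41 and 3.22 against 2.89 and 2.96, with a difference of 0.38 (adjusted p = 0.215) at the bottom of the scale. The related CYP26B1 gave 0.24 (adjusted p = 0.404). None of 21 retinoid enzymes and carriers and none of 15 retinoid receptors and cofactors was called in either direction. Over all genes 0.48% rose and 2.36% fell, rates at which lists of this size may hold no call. Without tamibarotene 1, 1 gene rose and 1 fell in each list, beside 2.02% and 4.13% of all genes. RARA was 7.69, 6.91 and 7.35 against 7.57 and 7.58, so the arms overlapped (-0.26, adjusted p = 0.477). The other receptors gave 0.29 for RARG, -0.31 for RXRA and -0.28 for RXRB, where vehicle 2 alone was high at 9.44.

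The response was set beside the mean of the 6 other lines' responses, and the difference between them was tested for each gene. The response was above that mean in 237 genes (1.31%) and below it in 734 (4.05%). Without vehicle 2 these were 68 (0.375%) and 234 (1.29%). In 411 of the 734 genes below, the mean of the other lines had itself risen past the threshold, and 43 genes were called in opposite directions. Among the other 6 lines, calls per line ranged from 127 up (0.7%) and 70 down (0.386%) in OCI-M1 to 1541 up (8.5%) and 3333 down (18.4%) in Sig-M5, whose vehicle arrays also had raised beta-actin differences.

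DHRS3 had the lowest value of this contrast at -4.05 (adjusted p = 4.86e-15): the other lines rose by 4.50 on average, with 6.86 in MV-4-11 at the top and 1.92 in OCI-M1 at the bottom. Its vehicle mean was 8.16 in Kasumi-1 and 7.96 in OCI-M1, but 4.16 to 5.61 in the other lines. CYP26A1 was lower by 2.59 (adjusted p = 1.65e-11), although the lines themselves differed widely, from -0.23 in Sig-M5 to 7.10 in OCI-M1. CD38 rose in all 7 lines. The 1.80 of Kasumi-1 lay between 0.92 in OCI-M1 and 2.81 in OCI-AML3, the highest was 7.18 in MV-4-11, and Kasumi-1 was 2.02 below the mean of the others (adjusted p = 6.82e-11). Of the 24 measured retinoic acid genes, 8 were below the mean of the other lines, beside 4.05% of all genes. None was above, beside 1.31%. The list was chosen with earlier results of these data known, so this count too is a description. The 8 below included PLAAT4 at -1.56, ITGAM at -1.40 and ASB2, a ubiquitin ligase subunit, at -0.85. In number, 3 members rose in Kasumi-1, 6 in NOMO-1, where 2.77% of all genes were called higher, 7 in OCI-M1 and 7 in Sig-M5. The counts were 9 in KG-1a (1.21% of all genes), 11 in MV-4-11 (4.32%) and 12 in OCI-AML3 (5.5%), and the differences between these counts were not tested.

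**Figure D4:**
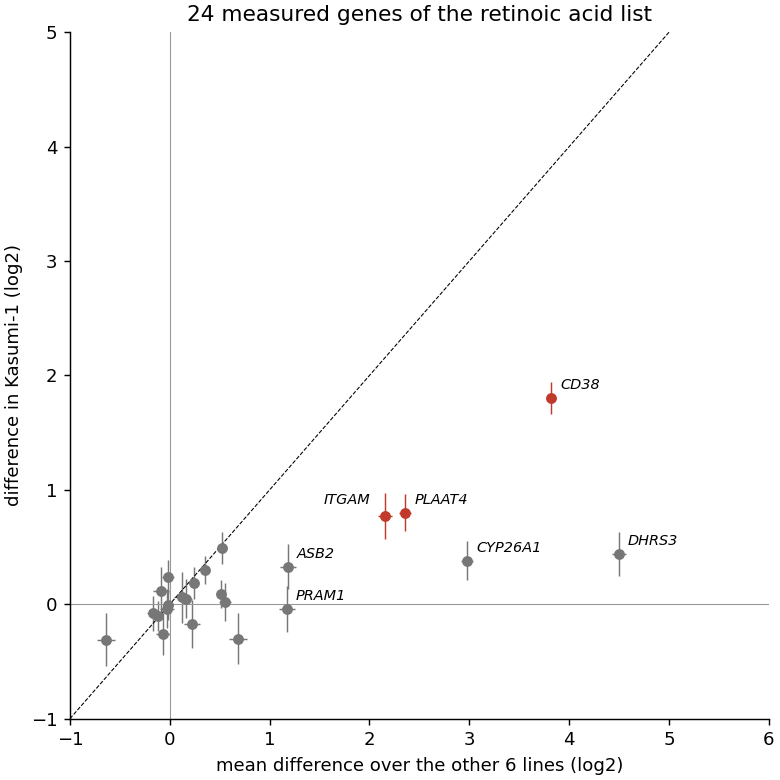
Each point is 1 of the 24 measured genes of the retinoic acid list, with the mean log2 difference of the other 6 lines on the x axis and the difference in Kasumi-1 on the y axis, bars giving standard errors. The dashed line marks equal responses; CD38, PLAAT4 and ITGAM (red) were called in Kasumi-1, and the points with a large mean in the other lines, DHRS3 at 4.50 and CYP26A1 at 2.98 among them, lie below the dashed line.

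CD1D, CLIC3, GNG2 and ITGA6, also far below the mean of the other lines, were not called in Kasumi-1, nor were they in OCI-M1, and CD1D, GNG2 and ITGA6 were not called in KG-1a. The lipid-presenting molecule CD1D was 4.19, 3.80 and 3.77 with tamibarotene and 4.61 and 4.28 with vehicle. The difference from the mean of the other lines was -3.59 (adjusted p = 1.53e-15). CD1D rose by 6.51 in MV-4-11, 5.15 in Sig-M5, 3.54 in OCI-AML3 and 3.18 in NOMO-1, but gave -0.25 in KG-1a and 0.24 in OCI-M1, neither called. The intracellular channel protein CLIC3 differed by 0.06 in Kasumi-1 and 3.18 on average elsewhere, with 0.15 in OCI-M1. The G protein subunit GNG2 differed by -0.20 against 2.78, with 0.22 in KG-1a and 0.55 in OCI-M1, neither called. Its vehicle mean was already 10.09 in Kasumi-1 and 9.86 in KG-1a, but 3.95 to 5.46 in the other lines. The integrin ITGA6 differed by -0.38 against 2.05, with -0.60 in KG-1a and -0.01 in OCI-M1. Its vehicle mean was 6.34 in Kasumi-1 and 8.17 in KG-1a, but 3.00 to 4.69 in the other lines. The fructose transporter SLC2A5 was called in Kasumi-1, at 8.45, 8.47 and 8.40 against 7.77 and 7.99 (0.56 ± 0.14, adjusted p = 0.0279, and 0.376 without vehicle 2), with 5 of its 7 probe sets called, and was 2.33 below the others, of which OCI-M1 gave 0.01.

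SEL1L3 went the other way from most lines. It fell by 1.02 in Kasumi-1 and by 1.15 in KG-1a, rose by 1.19 in NOMO-1, 2.42 in Sig-M5, 3.80 in OCI-AML3 and 4.93 in MV-4-11, and gave 0.36 in OCI-M1. Kasumi-1 was 2.95 below the mean of the others (adjusted p = 1.79e-14), also without vehicle 2 (adjusted p = 2.73e-11). GPRASP1 was 6.52 on average in Kasumi-1 vehicle arrays but 2.62 to 3.22 in the other lines, where its differences were 0.01 to 0.15. IL6R fell by 1.77 in Sig-M5, 0.72 in MV-4-11 and 0.42 in OCI-AML3 as well, rose by 1.53 in OCI-M1, and gave -0.04 in NOMO-1 and 0.14 in KG-1a. TENT5C fell by 2.83 in MV-4-11, and its differences in the other 5 lines, -0.54 to -0.10, did not pass the test. LRRC17 gave -0.26 to 0.25 in the other lines with no call. FAM117A was -0.25 from the mean of the others (adjusted p = 0.286), a difference that did not pass the test. IRF1 was 0.62 lower (adjusted p = 0.000372) than the mean rise of 1.12.

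**Figure D5:**
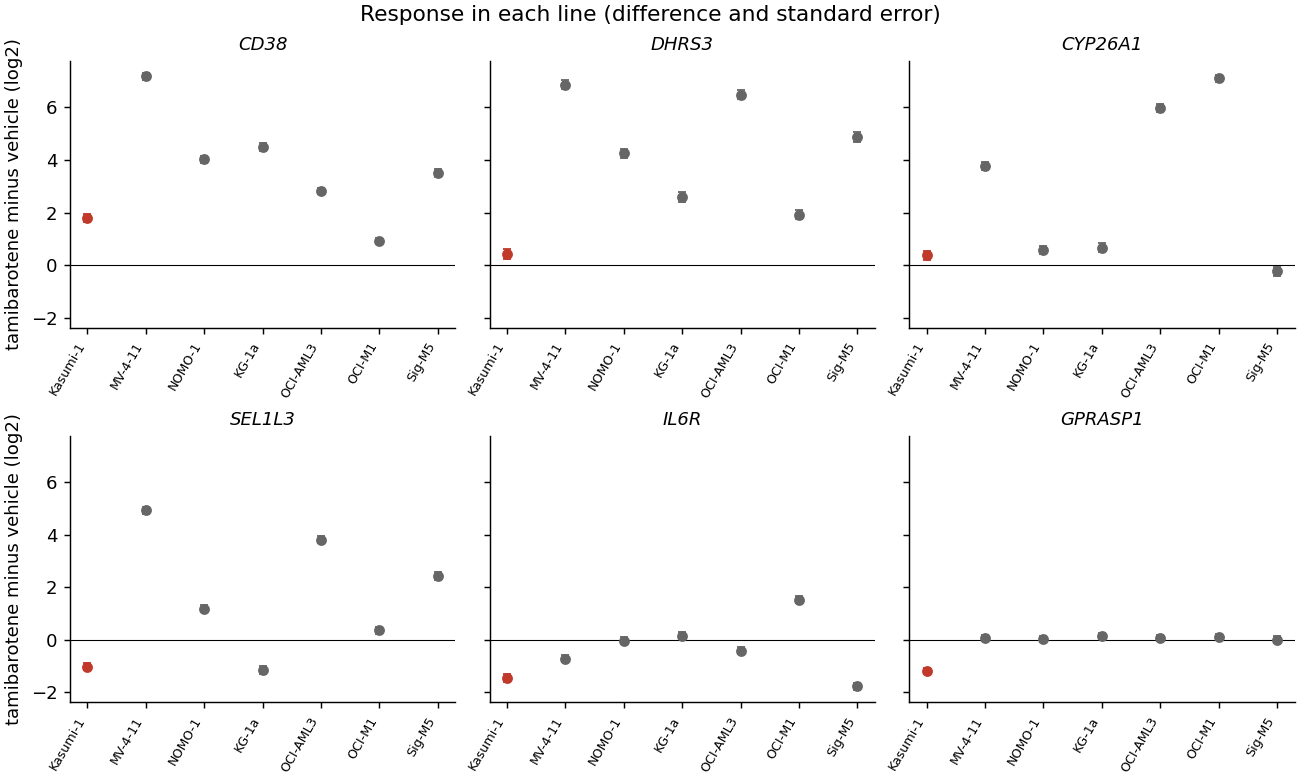
Each panel gives the tamibarotene minus vehicle difference of 1 gene in log2 units for Kasumi-1 (red) and the other 6 lines (grey), with standard errors that are mostly smaller than the points. Kasumi-1 is lowest for DHRS3, next above OCI-M1 for CD38, negative with KG-1a for SEL1L3, and alone away from 0 for GPRASP1.

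Among the 237 genes above the mean of the other lines, that mean had itself fallen past the threshold in 138. The intermediate filament gene VIM was 3.46, 3.15 and 3.13 against 3.14 and 3.10 in Kasumi-1, near the bottom of the scale, and fell by 3.68 in Sig-M5 and 2.43 in MV-4-11 (1.56 above, adjusted p = 6.9e-05). The cytokine TNF was 1.37 above, the interleukin-1 antagonist IL1RN 1.24 and the protease inhibitor CST7 1.09, all with no call in Kasumi-1. TNF was called lower only in OCI-AML3 (-1.47) and Sig-M5 (-3.37). IL1RN was called lower in MV-4-11, OCI-AML3 and Sig-M5, but gave -0.10 in NOMO-1, 0.11 in KG-1a and 0.12 in OCI-M1, beside 0.14 in Kasumi-1. CST7 was not called in NOMO-1 (-0.28) or OCI-M1 (-0.38). The IgE receptor chain FCER1A was 1.01 above and SPNS3 0.96. In Kasumi-1 the vehicle means of IL1RN (3.98) and FCER1A (3.66) were low, which leaves little room for a fall. ANKRD12 (1.22) and the nucleotide kinase NME4 (0.96) were called as rises in Kasumi-1 with all arrays. CTSG, a granule protease, was 11.59, 11.70 and 11.67 against 11.88 and 11.73 in Kasumi-1 and 0.92 above the others, which fell by 1.08 on average.

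In the lists for the fusion protein, 3 of 20 genes reported as raised by it or high in t(8;21) leukemia rose and 1 fell. The rises were of UBASH3B by 1 of its 4 probe sets, TRH by 1 of its 2, and ID1. The fall was of CD34, by 1 of its 3 probe sets. Of 19 genes reported as repressed by the fusion protein, 2 fell (RASSF2 and LGALS1). Over all genes 0.48% rose and 2.36% fell. None of these was called without vehicle 2. ID1, an inhibitor of helix-loop-helix transcription factors, was 10.80, 10.81 and 10.78 against 10.11 and 10.12. Its arrays agreed closely within each arm, and all 3 of its probe sets were called (0.66 to 0.92). The difference was 0.68 ± 0.12 (adjusted p = 0.00416), and it was also 0.68 without vehicle 2. RUNX1T1 gave -0.34 (adjusted p = 0.286) and KIT -0.38 (adjusted p = 0.506), with overlapping arms for RUNX1T1.

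The maturation genes of the myeloid lineage were read against the 0.48% of all genes that rose and the 2.36% that fell. None of 14 primary granule genes was called, MPO gave 0.01, and the median was 0.03. Of 21 neutrophil maturation and surface genes ITGAM rose, and of 19 secondary and tertiary granule genes PTX3 fell (-1.07). Of 26 monocyte and macrophage markers S100A8 fell (-0.47). Among 31 myeloid transcription factors RUNX2 fell (-0.95, adjusted p = 0.0151), and its other, dimmer probe set gave -0.08. Without vehicle 2 the RUNX2 difference was -0.80 and was not called. The granulocyte factors gave -0.16 for CEBPA, where vehicle 2 was 8.34 and vehicle 3 was 7.25 and the sign turned without vehicle 2 (0.38), 0.06 for CEBPE, -0.01 for SPI1 and -0.11 for GFI1. In bulk samples a change in the share of cells and a change in RNA per cell cannot be told apart.

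In the antigen presentation list, 2 of 15 MHC class I genes rose, beside 0.48% of all genes, with a median of 0.24 over the list. PSMB9, an immunoproteasome subunit, was 6.14, 6.20 and 6.06 against 5.34 and 5.59 (0.67 ± 0.10, adjusted p = 0.000403, and 0.0732 without vehicle 2), but 1 of its other probe sets gave -0.43. HLA-C was 10.70, 10.69 and 10.85 against 10.39 and 10.33 (0.39, adjusted p = 0.0168). The difference was 0.42 without vehicle 2, where it was not called. This was 1 of 3 HLA-C probe sets, and the others gave 0.24 and -0.04, neither called. Without tamibarotene 1, 5 of the 15 rose, beside 2.02% of all genes. Without tamibarotene 2 it was 1, beside 0.0662%, and without tamibarotene 3 it was 1, beside 0.474%. With the beta-actin difference as a covariate 1 rose, beside 0.0441%, and the list's median was 0.13. With each array left out in turn the list's median was 0.18 to 0.29. Of 39 interferon response genes IRF1 rose and IRF2 (-0.53) and IFIT1 (-0.73) fell, beside 0.48% and 2.36% of all genes, and 9 were below the mean of the other lines, beside 4.05%.

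Growth and survival genes were read against the same 0.48% of rises and 2.36% of falls over all genes. None of 31 replication genes and none of 34 genes of the MYC network and ribosome biogenesis was called, and MYC was 12.85, 12.81 and 12.78 against 12.57 and 12.79. In the mitosis list of 28, BIRC5 rose (0.44), with 4 of its 12 probe sets called and values from -0.10 to 0.77. Without tamibarotene 1, 5 members of the list rose and 2 fell, beside 2.02% and 4.13% of all genes. No member was called without tamibarotene 2 or without tamibarotene 3. Of 17 cyclin-dependent kinase inhibitors and antiproliferative genes 3 fell, namely CDKN1C (-0.77), CCND1 (-0.71) and CDKN1B (-0.57), and the list's median was -0.18, but 0.04 without vehicle 2. CCND1 encodes a cyclin and not an inhibitor. All 3 probe sets of CDKN1C were called, but the other probe sets of CCND1 gave -0.02 to 0.07 and that of CDKN1B gave -0.26. Of 23 p53 targets TP53INP1 (-1.03), SESN1 (-0.58) and XPC (-0.42) fell, with a median of -0.13 that was -0.05 without vehicle 2. The other probe set gave -0.10 for TP53INP1, -0.02 for SESN1 and -0.31 for XPC. Of 27 cell death regulators CASP9 rose (0.42, adjusted p = 0.0432) and none fell, and the other CASP9 probe set gave 0.10. The survival gene BCL2 was 5.81, 6.22 and 6.14 against 7.03 and 6.68, a difference of -0.80 that did not pass the test (adjusted p = 0.187). Of its 6 probe sets another gave -0.79, and the rest gave -0.05 to 0.07. None of the genes called in these lists was called without vehicle 2, whereas the p53 target PHLDA3 was called as a rise in that fit and not with all arrays. Among 15 reference genes YWHAZ was called lower (-0.48), and it too was not called without vehicle 2.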

How the data were processed

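The deposited values are normalized log2 intensities of PrimeView probe sets, which the authors made by RMA (affy) according to the submitters' processing notes, where no version is given. A genome build is not given in the sources used here. Sample groups came from the titles. Of 49395 probe sets, 44988 carried 1 gene symbol, 1832 several, 2473 none, and 102 were controls. For each gene the brightest probe set, by its average across the series, was used. A model with a mean for each of 14 groups was fitted to all 39 arrays by lmFit and eBayes of limma 3.58.1 (R 4.3.3, data.table version 1.17.8), which left 25 residual degrees of freedom. Benjamini-Hochberg adjustment ran across all 18132 genes. The fit was tested on simulated data. Because the spread is pooled, a fit with 1 vehicle array assumes that it varies like the other groups. The second contrast was the response in Kasumi-1 minus the unweighted mean of the other 6 responses. The number of arrays limits the precision. Plotting used matplotlib 3.10.9 under Python 3.11.15.

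Named genes were the up to 15 largest rises and falls called with and without vehicle 2 whose arms did not overlap, the 6 largest each way called only with vehicle 2, the 8 most above and below the other lines, up to 6 called members of each of 41 lists, and a fixed set of 27 genes, 26 of which were tested. The members and lists were chosen with earlier results of these data known. The search for TTCNNNGAA was added after the values were seen. Direct repeats and lists are described without a test.

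The correlation of deviations between same-numbered arrays in Kasumi-1 was 0.117 for number 2 and -0.173 for number 3. With 2 vehicle arrays the deviations of one mirror those of the other, so these values could not show whether the numbers pair the samples. The numbers were not used as pairs in the main fit.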

Additional observations from a re-analysis of the deposited data

Results flagged for a closer look

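The Kasumi-1 response differed from the mean response of the other 6 lines, by the test of that difference, in 237 genes above and 734 genes below. The genes named by the largest such differences above were VIM (1.56), TNF (1.37), IL1RN (1.24), ANKRD12 (1.22), CST7 (1.09), FCER1A (1.01), NME4 (0.96) and SPNS3 (0.96). Those below were DHRS3 (-4.05), CD1D (-3.59), CLIC3 (-3.12), GNG2 (-2.98), SEL1L3 (-2.95), CYP26A1 (-2.59), ITGA6 (-2.43) and SLC2A5 (-2.33). All 16 were also called without vehicle 2, which was part of the rule that chose them.

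Outside the gene tests, 114 probe sets with no gene symbol or several were called in Kasumi-1: 66 of 2473 with none and 48 of 1832 with several. Without vehicle 2, 1 of each kind was called.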

How the results depend on the processing

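Counts below are of genes higher and lower in Kasumi-1, then of genes above and below the other lines, against 87, 428, 237 and 734. Leaving out each Kasumi-1 array in turn gave 6 to 404, 9 to 1430, 68 to 478 and 234 to 1296. The beta-actin difference as a covariate gave 8 and 20, and left the others within 1.5 times. Estimated array weights gave 3, 10, 44 and 282. Testing every probe set gave 415, 917, 523 and 1397, and the mean of a gene's probe sets gave 236 lower. A minimum difference of 1 gave 3, 21, 11 and 114. Without Sig-M5, 131 were higher. In the 5 Kasumi-1 arrays alone (3 residual degrees of freedom) limma called 0 and 0, with 1728 genes at an unadjusted p under 0.05 and a smallest adjusted p of 0.204. Among alternatives added after seeing the data, leaving out both tamibarotene 1 and vehicle 2 gave 73 lower and 410 below, and the score of the replicate pattern as a covariate gave 468, 1239, 703 and 1421. Quantile normalization, a filter on dim genes and the trend and robust options kept all counts within 1.5 times.

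The replicate block gave 721, 1213, 852 and 1326 on 11 residual degrees of freedom. It uses tamibarotene 2 and 3 and drops tamibarotene 1, which has no vehicle array of its number. Whether the numbers pair the samples is not known. None of the 59 named genes called with all arrays changed sign under an alternative, while 17 of the 31 not called did. CEBPA, for example, was -0.16, 0.38 without vehicle 2 and -0.70 (adjusted p = 0.00827) without vehicle 3, and RXRB -0.28, 0.06 and -0.62 (adjusted p = 0.00245). Of the settings run for named genes, 1079 kept their side of the threshold, 346 lost it and 11 gained it. CD38, FAM117A, GPRASP1, SEL1L3 and TENT5C, 5 genes, were called under every alternative but the Kasumi-1 arrays alone. Where the cause of a changed count is not in the alternative's own construction, the cause was not tested.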
